A study of Homo sapiens with 23 samples.

Results

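The heat shock proteins and their cochaperones were followed as a list of 34 genes chosen by name, with earlier results of these data known. The list holds the transcription factors HSF1 and HSF2, members of the HSP70, HSP110, HSP90, small heat shock protein and chaperonin families, J-domain proteins, BAG proteins and HSP90 cochaperones. A gene was read from the probe set whose single annotated symbol it carried, and 30 of the 34 genes had 1 such probe set among the 21448 probe sets tested. HSF2, HSPA1B, AHSA1 and TCP1 had none under this rule and were not analysed here.

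RNA was measured on Clariom S HT arrays in HL-60 and OCI-AML3, both established human acute myeloid leukemia (AML) cell lines. Cells received 40 µM CIGB-300, a synthetic peptide inhibitor of protein kinase CK2, or were left untreated, for 30 min or 3 h. The 23 arrays fell into 8 groups, namely treated and untreated HL-60 at 3 h, treated and untreated HL-60 at 30 min, and the same groups of OCI-AML3. Each group had 3 arrays, labelled as biological replicates, except untreated OCI-AML3 cells at 30 min with 2, because the authors had removed 1 array as an outlier. Every group was a single cell line in culture, and the untreated cells received no control peptide that the labels name. For untreated OCI-AML3 cells at 3 h, the 3 array titles give 30 h but the time field gives 3 h, which was followed.

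Heat shock proteins are chaperones that bind unfolded or newly made proteins and help them fold, or pass them on for degradation. In a stressed cell HSF1 is released from chaperones, forms trimers and binds heat shock elements, which are inverted repeats of a short GAA unit, in the promoters of chaperone genes. HSP70 proteins work in cycles of ATP binding and hydrolysis, which J-domain proteins start and nucleotide exchange factors such as the HSP110 and BAG proteins complete. HSP90 takes over part of their clients, among them many kinases, with the help of cochaperones, and CK2 is itself known to phosphorylate HSP90 and several of its cochaperones.

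Promoter sequences (250 bases before to 50 bases after the gene start, RefSeq, GRCh38.p14) were read for 26 of the 30 measured genes, all but HSF1, HSPA14, CRYAB and FKBP4. They were searched for GAANNTTC and TTCNNGAA, each of which is its own reverse complement, so that a match holds for both strands. Overlapping matches of both motifs were kept, and a match of 1 motif whose last unit opens a match of the other was counted as a run of 3 units. At least 1 match was found in 9 of the 26 promoters (34.6%), against 4722 of all 34943 promoters of the table (13.5%), and a run of 3 units in 4 of the 26 (15.4%), against 171 of all (0.489%). The 3 genes with the smallest p in the comparison of treated with untreated HL-60 cells at 3 h, described next, are shown with HSPA6, a gene known for its strict heat inducibility, to set promoters with and without matches side by side. Capitals mark the matches. HSPA1A lies at chr6:31815293-31815592 (plus strand), HSPA4L at chr4:127781546-127781845 (plus strand), CHORDC1 at chr11:90223000-90223299 (minus strand) and HSPA6 at chr1:161524290-161524589 (plus strand).
HSPA1A: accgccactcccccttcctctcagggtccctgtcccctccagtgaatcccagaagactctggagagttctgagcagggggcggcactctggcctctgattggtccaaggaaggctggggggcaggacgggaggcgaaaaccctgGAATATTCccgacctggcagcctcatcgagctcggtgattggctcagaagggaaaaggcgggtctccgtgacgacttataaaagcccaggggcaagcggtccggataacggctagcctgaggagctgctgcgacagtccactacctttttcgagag
HSPA4L: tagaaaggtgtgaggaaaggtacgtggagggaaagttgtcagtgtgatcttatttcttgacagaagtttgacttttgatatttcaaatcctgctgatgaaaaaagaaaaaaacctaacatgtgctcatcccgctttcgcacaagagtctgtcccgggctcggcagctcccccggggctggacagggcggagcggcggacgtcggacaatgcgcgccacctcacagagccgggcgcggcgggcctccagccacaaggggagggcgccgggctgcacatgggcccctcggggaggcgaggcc
CHORDC1: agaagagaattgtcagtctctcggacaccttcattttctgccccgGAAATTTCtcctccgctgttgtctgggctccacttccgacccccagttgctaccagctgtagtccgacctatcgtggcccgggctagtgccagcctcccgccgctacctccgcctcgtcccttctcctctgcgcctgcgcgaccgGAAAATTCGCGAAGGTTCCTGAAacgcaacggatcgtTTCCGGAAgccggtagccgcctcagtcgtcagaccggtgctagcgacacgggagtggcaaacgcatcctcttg
HSPA6: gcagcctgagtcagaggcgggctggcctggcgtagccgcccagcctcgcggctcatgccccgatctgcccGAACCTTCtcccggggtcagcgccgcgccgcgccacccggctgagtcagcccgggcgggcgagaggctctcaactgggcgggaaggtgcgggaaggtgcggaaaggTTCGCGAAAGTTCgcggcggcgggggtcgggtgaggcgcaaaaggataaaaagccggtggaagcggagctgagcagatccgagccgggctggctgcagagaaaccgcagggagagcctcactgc

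CHORDC1 had 6 matches, 3 of them starting a run of 3 units, more than any other member. HSPA6 and DNAJA1 had 3 matches each, and DNAJB6 and HSPB8 had 2 each. HSPA1A had 1, GAATATTC, whose first base lies 106 bases before the gene start. HSPA4L, BAG3 and DNAJB1 had no match in this window, which says nothing about sites elsewhere. The HSPA1A and HSPA1L promoters lie head to head and share 241 bases, so their single match is the same site. It was counted for each of these genes among the 9 promoters with a match. The promoters of HSPD1 and HSPE1 share 204 bases. The promoter of HSPA1B, which the arrays did not give a probe set of its own, was identical to that of HSPA1A at 277 of 299 aligned bases (92.6%), and the transcripts of both genes are known to be nearly identical, so signal from HSPA1B in the HSPA1A probe set was not told apart here. A match is a description of letters and was not tested for binding.

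In HL-60 cells treated for 3 h, HSPA1A rose above time-matched untreated cells, and HSPA4L and CHORDC1 were higher by adjusted p only. The stress-inducible HSP70 gene HSPA1A had log2 expression values of 8.49, 8.50 and 8.10 in treated HL-60 cells at 3 h, against 7.68, 7.79 and 7.76 in untreated HL-60 cells at 3 h. All treated arrays were above all untreated ones, with treated replicate 3 closest to them. The log2 fold change was 0.62 ± 0.13 (SE), a 1.54-fold rise with a limma adjusted p of 0.00504. In bulk RNA, fewer cells of a type and less RNA per cell cannot be told apart. The study's rule for differentially expressed genes asks for at least a 1.5-fold change with an unadjusted p under 0.01. By it 1 of the 30 genes was called, all probe sets having a called share of 3.87%. At an adjusted p under 0.05 with no limit on fold, 3 of 30 were called, all upward, against 5.57% of all probe sets. The log2 scale is the authors' own, and values of different genes are not set against each other because probes differ in brightness.

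HSPA4L, an HSP110-type nucleotide exchange factor of HSP70, read 9.44, 9.20 and 9.39 in treated HL-60 cells at 3 h, against 8.76, 8.94 and 8.996 in untreated ones. The groups did not overlap, and the log2 fold change was 0.45 ± 0.10 (1.36-fold, adjusted p = 0.0151). CHORDC1, an HSP90 cochaperone with the runs of 3 units printed above, read 9.74, 9.68 and 9.80 in treated HL-60 cells at 3 h, against 9.50, 9.28 and 9.38 in untreated ones. Its groups did not overlap either, and the log2 fold change was 0.35 ± 0.09 (1.28-fold, adjusted p = 0.026). These calls leaned on single arrays. Without replicate 1 or replicate 2 of the treated HL-60 cells at 3 h the HSPA1A fold change was 0.56 on the log2 scale, under the fold limit, with adjusted p of 0.0333 and 0.0287. HSPA4L missed an adjusted p of 0.05 when any of 3 of the 6 arrays was left out (0.0573 to 0.0788), and CHORDC1 when any of 4 was left out (0.0735 to 0.117).

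BAG3, the stress-inducible BAG protein that couples HSP70 to HSPB8, read 6.75, 6.95 and 5.97 in treated HL-60 cells at 3 h, against 6.08, 6.08 and 5.95 in untreated ones. Treated replicates 1 and 2 were above all untreated arrays while replicate 3 lay within them, and the log2 fold change of 0.52 ± 0.18 did not pass (adjusted p = 0.118). Without that replicate it was 0.82 with an adjusted p of 0.00143, the largest value of any alternative run. Over the 12 alternative runs the BAG3 fold change was 0.32 to 0.82 on the log2 scale, with an adjusted p of up to 0.382. In 11 of these runs BAG3 stayed uncalled by p and fold. Replicate 3 was also the lowest of the treated arrays for HSPA1A, but the highest for CHORDC1 and DNAJA1.

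**Figure D1:**
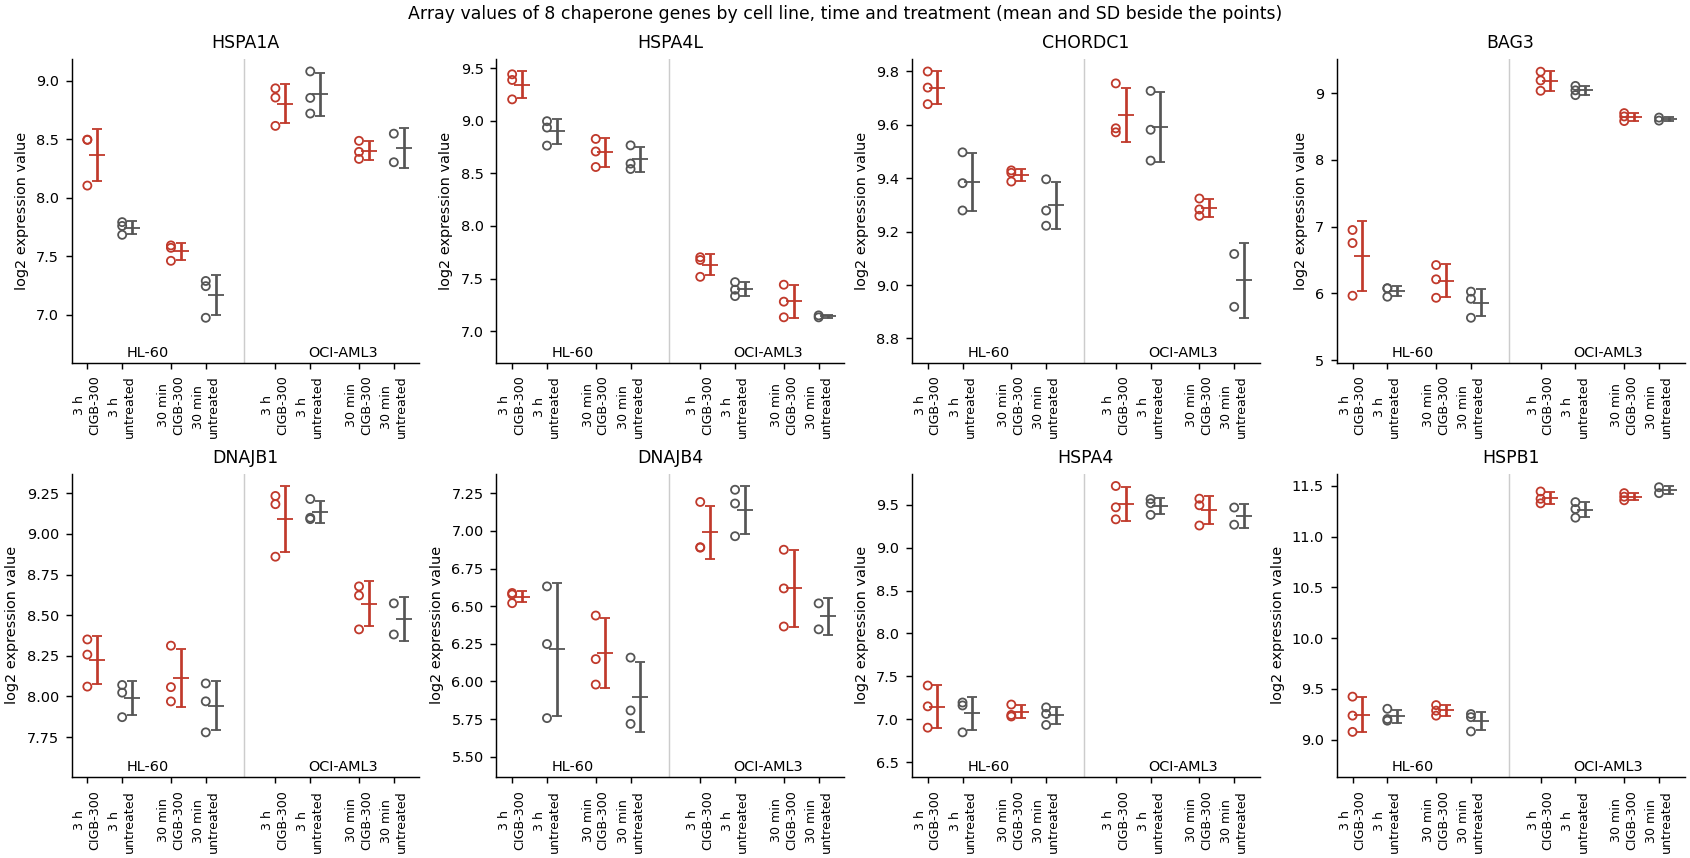
Log2 expression values (y axes, a separate range for each gene) of 8 genes in every array, with HL-60 left and OCI-AML3 right of the line, CIGB-300-treated arrays in red and untreated arrays in grey. Points are arrays, and the bar beside them is the mean with its SD (n = 3, and n = 2 for untreated OCI-AML3 at 30 min). HSPA1A, HSPA4L and CHORDC1 of treated HL-60 cells at 3 h lie above their untreated arrays, and BAG3, HSPA4 and HSPB1 are separated by cell line.

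Of the other partner genes of HSP70 and HSP90, beside HSPA4L and CHORDC1, none passed either rule at 3 h in HL-60. DNAJA1, a J-domain protein, read 10.69, 10.44 and 10.82 in treated cells and 10.20, 10.40 and 10.36 in untreated cells, with no overlap and a log2 fold change of 0.33 ± 0.10 (adjusted p = 0.0579). FKBP4, an HSP90-binding immunophilin, read 10.41, 10.28 and 10.43 in treated cells and 10.09, 10.09 and 10.17 in untreated cells (0.25 ± 0.09, adjusted p = 0.111). HSPH1, of the HSP110 family, had 0.24 (adjusted p = 0.167), and STIP1, which bridges HSP70 and HSP90, had 0.22 (adjusted p = 0.224). HSP90AA1 and HSP90AB1, the HSP90 genes themselves, both had 0.01 on the log2 scale. HSF1 read 10.08, 10.09 and 10.04 in treated cells and 9.98, 10.05 and 9.80 in untreated cells, with overlap (0.13, adjusted p = 0.46). In all, 8 of the 30 genes had an unadjusted p under 0.05, all with positive log2 fold changes. The share of all probe sets under that p was not counted, so the 8 are not read as a result about the list. A value above 0 was found in 21 genes, and the median was 0.11 against -0.03 over all probe sets. The 95% confidence interval of the log2 fold change lay within a 1.5-fold change either way for 23 of the 30 genes and within a 2-fold change for all 30. Such intervals were not counted over all probe sets either.

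After 30 min in HL-60 cells none of the 30 genes passed either rule, all probe sets having called shares of 0.877% and of 0.345% by adjusted p. HSPA1A again had the largest difference of the list, with 7.46, 7.57 and 7.59 in treated cells and 7.29, 6.97 and 7.24 in untreated cells. These arrays did not overlap, and the log2 fold change was 0.37 ± 0.13, under the fold limit and with an adjusted p of 0.491. BAG3, described above, followed with 5.93, 6.21 and 6.42 in treated cells, against 5.64, 6.03 and 5.92 in untreated cells (0.33, overlapping). HSPA4L had values of 8.71, 8.56 and 8.83 in treated cells and 8.54, 8.59 and 8.77 in untreated cells, and CHORDC1 had 9.39, 9.43 and 9.42 against 9.22, 9.40 and 9.28. BAG1, another nucleotide exchange factor, had the most negative value of the list, reading 7.27, 7.16 and 7.37 in treated cells and 7.36, 7.32 and 7.74 in untreated cells (-0.21, overlapping). The median over the list was 0.05 against -0.01 over all probe sets. An unadjusted p under 0.05 was found for 1 gene, HSPA1A, again with no share of all probe sets counted. Whether the effect at 3 h differed from that at 30 min was tested directly in HL-60. The largest such difference upward was that of HSPA4L (0.38 on the log2 scale, adjusted p = 0.285), that of HSPA2 was the largest downward (-0.39), and 0 of 30 genes passed either rule, against 3.24% and 1.49% of all probe sets.

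In OCI-AML3 cells no member of the list passed at 3 h by either rule, with 1.6% of all probe sets called by p and fold and 0.974% by adjusted p. HSPA1A read 8.94, 8.86 and 8.61 in treated OCI-AML3 cells at 3 h, against 9.08, 8.85 and 8.72 in untreated ones, with wide overlap. HSPA4L read 7.70, 7.52 and 7.68 in treated cells, against 7.39, 7.47 and 7.33 in untreated cells. These did not overlap, but the log2 fold change of 0.23 missed the threshold (adjusted p = 0.403). CHORDC1 read 9.59, 9.75 and 9.57 in treated cells and 9.47, 9.58 and 9.73 in untreated cells. BAG3 read 9.19, 9.03 and 9.32 in treated cells and 9.04, 8.97 and 9.11 in untreated cells. Both overlapped between the groups.

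The most negative fold changes in OCI-AML3 at 3 h with an unadjusted p under 0.05 belonged to HSPA1L, an HSP70 gene known from testis, and HSPE1, the mitochondrial HSP10. HSPA1L read 3.27, 4.13 and 4.14 in treated cells, against 4.39, 4.20 and 4.47 in untreated cells, with a log2 fold change of -0.51 ± 0.19 (adjusted p = 0.288). It lay above the 95th percentile of the 612 negative control features of its own array on only 2 of the 23 arrays, so that this is a difference between values near background. HSPE1 read 10.36, 10.36 and 10.35 in treated cells, against 10.57, 10.72 and 10.47 in untreated cells, and its log2 fold change of -0.23 did not pass (adjusted p = 0.298). The median over the list was 0.00, as over all probe sets. A confidence interval within a 1.5-fold change was found for 27 of the 30 genes, with no share of all probe sets counted.

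At 30 min in OCI-AML3 cells the count was 0 of 30 by both rules, against 1.07% and 0.182% of all probe sets. CHORDC1 had the smallest p, with 9.28, 9.26 and 9.32 in treated cells and 8.92 and 9.12 in untreated cells (0.27 ± 0.10, unadjusted p = 0.0151, adjusted p = 0.591). HSPA1A read 8.49, 8.39 and 8.33 in treated cells and 8.30 and 8.55 in untreated cells. HSPA2, an HSP70 gene known from testis, had the largest log2 fold change, with 5.69, 5.62 and 5.74 in treated cells and 5.38 and 5.37 in untreated cells. These arrays did not overlap, and the value of 0.31 ± 0.24 did not pass. The test of the OCI-AML3 effect at 3 h against that at 30 min called 0 of 30 genes by either rule, where 2.18% of all probe sets passed by p and fold and 0.0699% by adjusted p. The most negative such differences were those of HSPA1L (-0.77, adjusted p = 0.346) and HSPA2 (-0.63, adjusted p = 0.541), and HSPE1 had the smallest p (-0.37, adjusted p = 0.325).

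**Figure D2:**
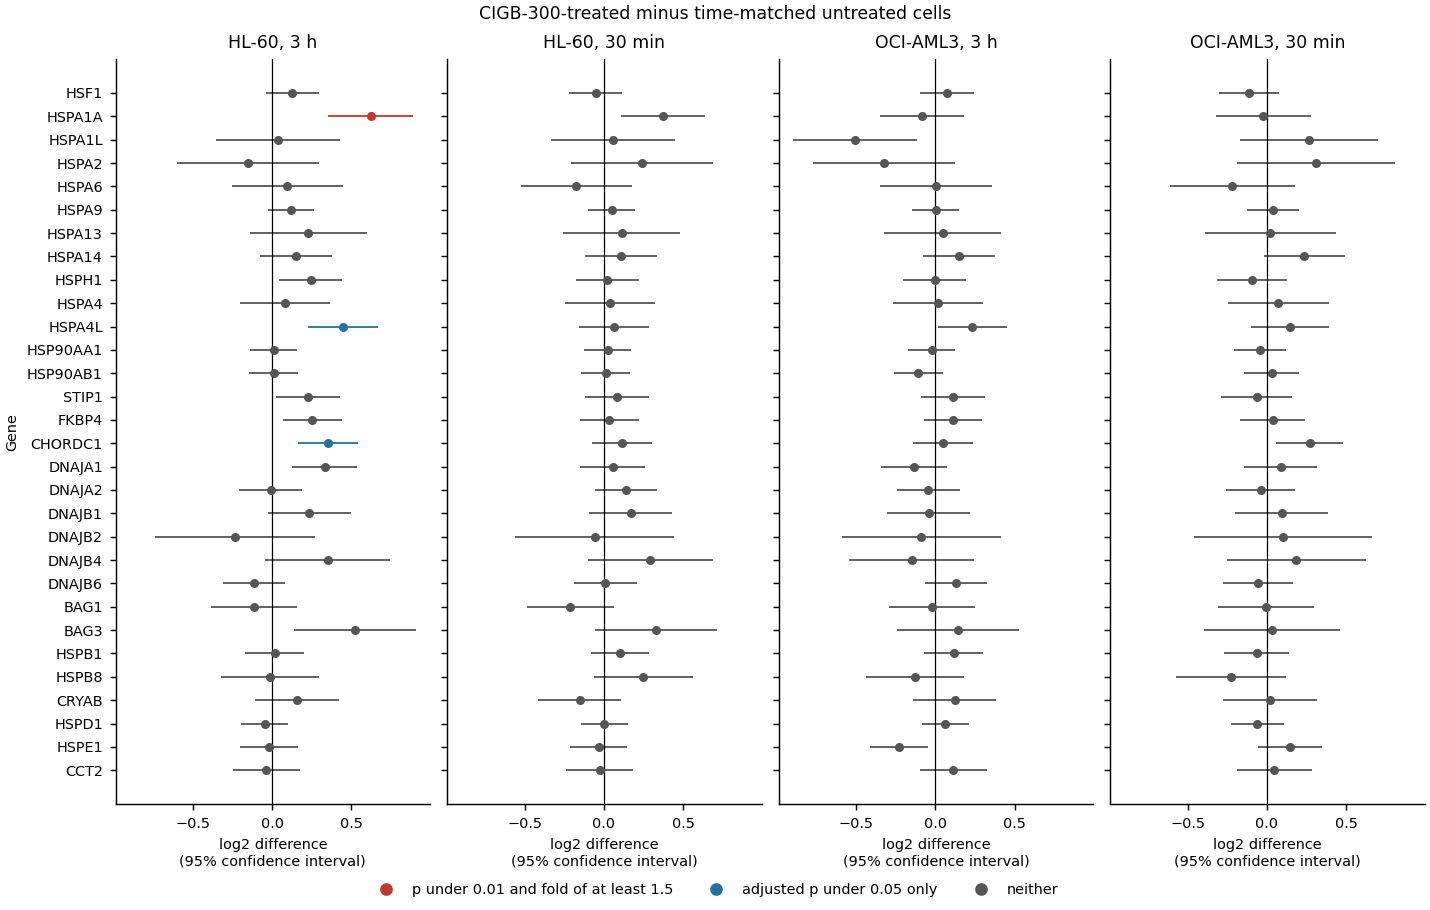
Log2 fold change of CIGB-300-treated against untreated cells of the same time (x axes) for the 30 genes (rows) in HL-60 at 3 h and 30 min and OCI-AML3 at 3 h and 30 min, left to right, with 95% confidence intervals from the fit to all 23 arrays. Red marks the study's rule (HSPA1A, HL-60, 3 h, 0.62), blue an adjusted p under 0.05 only (HSPA4L and CHORDC1, HL-60, 3 h), and every other point is grey.

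The cell lines were then compared for their response. The 3 h effect of HSPA1A was larger in HL-60 than in OCI-AML3 by 0.70 ± 0.18 on the log2 scale, being 0.62 in HL-60 and -0.08 in OCI-AML3. This passed limma's test by p and fold (unadjusted p = 0.000987) but not by adjusted p (0.0678). With each of the 12 arrays left out in turn the difference was 0.61 to 0.83. Its adjusted p was 0.0201 without treated HL-60 replicate 3 and above 0.05 in every other such run (0.0529 to 0.168). It was the only member of 30 called, against 2.98% of all probe sets, and 0 of 30 passed by adjusted p, against 1.24%. By p, DNAJA1 followed with a difference of 0.46 (adjusted p = 0.139) and CHORDC1 with 0.31 (adjusted p = 0.362). At 30 min no member passed either rule, with 1.39% and 0.0746% of all probe sets passing. The largest difference at that time was that of HSPB8, a small heat shock protein near background on most arrays (0.47, adjusted p = 0.702), and HSPA1A had 0.40 (adjusted p = 0.714).

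Several of these genes also differed between the times of culture, in treated and in untreated cells. By p and fold the calls between the times were 2 of 30 in treated HL-60 cells (4.21% of all probe sets), 1 of 30 in untreated HL-60 cells (1.5%), 0 of 30 in treated OCI-AML3 cells (2.63%) and 2 of 30 in untreated OCI-AML3 cells (2.01%). By adjusted p they were 3 (6.8%), 1 (0.914%), 2 (3.7%) and 2 (0.779%), in the same order, and every call was upward at 3 h. With counts this small beside those shares, nothing is read from them about the list as a whole. HSPA1A averaged 7.74 ± 0.06 in untreated HL-60 cells at 3 h and 7.17 ± 0.17 in those at 30 min (SD, n = 3 each), a log2 difference of 0.58 ± 0.13 (adjusted p = 0.0362) that is 1.49-fold and just under the fold limit. In treated HL-60 cells HSPA1A was higher at 3 h than at 30 min by 0.82 ± 0.13 (adjusted p = 0.000402). HSPA1A was thus higher at the later time in both treatments of HL-60. The difference between treated and untreated cells at 3 h shares its untreated arrays with the comparison of times, so these values are set side by side and no overlap is drawn from them. Leaving out any of the 6 untreated HL-60 arrays took the adjusted p of HSPA1A between the times above 0.05 (0.063 to 0.162).

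HSPA4L in treated HL-60 cells was 0.65 ± 0.10 higher at 3 h than at 30 min (1.56-fold, adjusted p = 0.000644), and in untreated HL-60 cells 0.27 ± 0.10 (adjusted p = 0.308). Without treated replicate 2 at 30 min its difference in treated cells was 0.58 and under the fold limit, with an adjusted p of 0.00594. CHORDC1 in treated HL-60 cells was 0.33 higher at 3 h than at 30 min (adjusted p = 0.0355, and 0.0768 to 0.129 without any 1 of 5 of the 6 arrays) and in untreated HL-60 cells 0.09. HSPA2 was the only member called by p and fold in untreated HL-60 cells, reading 4.70, 4.37 and 4.47 at 3 h and 3.68, 3.91 and 4.08 at 30 min (0.63 ± 0.21, adjusted p = 0.209). It lay above the negative control percentile on 12 of the 23 arrays, its HL-60 values sit near that background, and the call was lost without any 1 of 5 of the 6 arrays.

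In untreated OCI-AML3 cells the later arrays were higher for CHORDC1 and for the J-domain genes DNAJB1 and DNAJB4. DNAJB1, the main HSP40 partner of stress-inducible HSP70, read 9.09, 9.10 and 9.22 at 3 h and 8.57 and 8.38 at 30 min, a rise of 0.66 ± 0.14 (1.58-fold, adjusted p = 0.0327). DNAJB4, a related J-domain protein, read 7.27, 6.96 and 7.18 at 3 h and 6.52 and 6.35 at 30 min, which is 0.71 ± 0.21 and passed by p and fold but not by adjusted p (0.134). CHORDC1 read 9.47, 9.58 and 9.73 at 3 h and 8.92 and 9.12 at 30 min (0.57 ± 0.10, adjusted p = 0.0115, 1.49-fold). None of the 3 genes had overlapping times. HSPB8 had the most negative difference, with 4.18, 3.87 and 3.99 at 3 h and 4.47 and 4.34 at 30 min, near background (-0.39, adjusted p = 0.359). Both DNAJB calls were lost without untreated replicate 3 at 30 min, which leaves 1 array there and assumes that it varies like the other groups. The adjusted p of DNAJB1 was above 0.05 without any 1 of the 5 arrays (0.0587 to 0.244), and that of CHORDC1 without untreated replicate 2 at 30 min (0.161) or replicate 3 at 3 h (0.0534). The DNAJB4 call was also lost without untreated replicate 1 at 3 h (0.64, adjusted p = 0.259).

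Treated OCI-AML3 cells, whose arrays have no disagreement over the time in their titles, had DNAJB1 and CHORDC1 higher at 3 h than at 30 min by adjusted p. DNAJB1 read 9.18, 9.23 and 8.86 at 3 h and 8.62, 8.68 and 8.41 at 30 min (0.52 ± 0.12, adjusted p = 0.0235), and CHORDC1 differed by 0.35 (adjusted p = 0.0373). Leaving out any 1 of 4 arrays for DNAJB1, or any 1 of the 6 for CHORDC1, took these adjusted p above 0.05, up to 0.109 and 0.135. BAG3 was 0.54 higher at 3 h than at 30 min in treated OCI-AML3 cells (adjusted p = 0.119), and HSPA1A 0.40 (adjusted p = 0.0944).

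**Figure D3:**
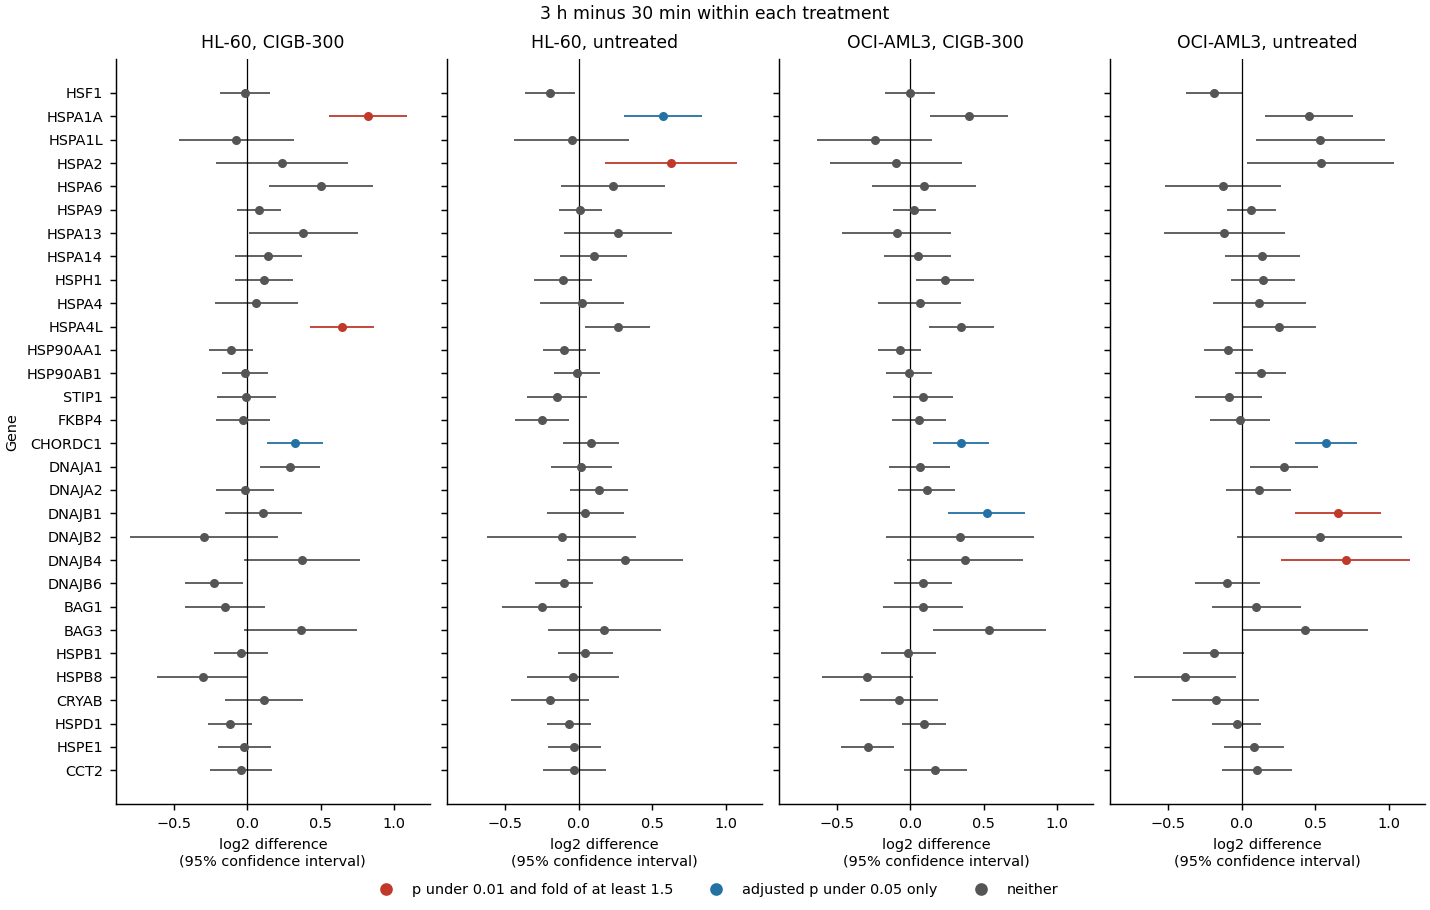
Log2 difference of 3 h minus 30 min (x axes) for the 30 genes (rows) in treated HL-60, untreated HL-60, treated OCI-AML3 and untreated OCI-AML3 cells, left to right, with 95% confidence intervals. Red marks p under 0.01 with a fold of at least 1.5 and blue an adjusted p under 0.05 only. Red points are HSPA1A (0.82) and HSPA4L (0.65) in treated HL-60, HSPA2 (0.63) in untreated HL-60, and DNAJB1 (0.66) and DNAJB4 (0.71) in untreated OCI-AML3.

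The widest differences in the list were those between the cell lines without peptide, taken as the mean of both times. Of the 30 genes, 1 was higher in untreated HL-60 than in untreated OCI-AML3 cells by p and fold (11.8% of all probe sets) and 9 were lower (13.1%). By adjusted p, 4 were higher (24.8%) and 16 lower (21.6%). The median difference was -0.27 on the log2 scale, against 0.07 over all probe sets. Array medians differed slightly between the lines, and centring each array on its median moved this comparison up by 0.13 throughout. The counts by p and fold were then 1 higher and 7 lower, those by adjusted p 7 higher and 13 lower. Shares of all probe sets were not counted with centred arrays, so those above do not apply to these counts. Each line is 1 culture history, so these differences describe the lines and not a class of leukemia.

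BAG3 had the largest difference of the list. Its untreated arrays read 5.64 to 6.08 in HL-60 (median 5.99, n = 6) and 8.59 to 9.11 in OCI-AML3 (median 8.97, n = 5), a log2 difference of -2.88 ± 0.14 that puts HL-60 7.34-fold lower (adjusted p = 1.24e-12). HSPA4, another HSP110-type exchange factor, read 6.85 to 7.20 in HL-60 (median 7.10) and 9.27 to 9.57 in OCI-AML3 (median 9.47), or -2.37 ± 0.10 (5.17-fold lower, adjusted p = 2.2e-13). HSPB1, the small heat shock protein HSP27, read 9.08 to 9.30 in HL-60 (median 9.21) and 11.19 to 11.49 in OCI-AML3 (median 11.34), or -2.15 ± 0.07 (4.45-fold lower, adjusted p = 1.77e-15). None of these ranges overlapped.

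HSPA4L ran the other way and was the only member called higher in HL-60 by p and fold. It read 8.54 to 8.996 in untreated HL-60 arrays (median 8.77) and 7.13 to 7.47 in untreated OCI-AML3 arrays (median 7.33), with a log2 difference of 1.497 ± 0.079 (2.82-fold, adjusted p = 5.17e-12). HSPA4 and HSPA4L, close paralogs of the same family, therefore differed between the lines in opposite directions. For both genes this was so on all 12 HL-60 and all 11 OCI-AML3 arrays, treated ones included, and it held with arrays centred on their medians.

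HSPA1A and the J-domain genes DNAJB1 and DNAJB4 were lower in HL-60 as well. HSPA1A read 6.97 to 7.79 in untreated HL-60 arrays (median 7.48) and 8.30 to 9.08 in untreated OCI-AML3 arrays (median 8.72), or -1.20 ± 0.10 (2.30-fold lower, adjusted p = 2.5e-09). DNAJB1 had -0.84 ± 0.09 and DNAJB4, whose arrays overlapped, -0.73 ± 0.14. HSPA2 had -1.44 ± 0.16, with HL-60 values near background. HSPA14, a ribosome-associated HSP70, had -0.69 ± 0.08 and STIP1 -0.60 ± 0.07, and these were the calls that centring took under the fold limit. STIP1 was also under it without untreated HL-60 replicate 2 at 30 min or at 3 h.

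HSF1 itself read 9.80 to 10.18 in untreated HL-60 arrays and 10.33 to 10.62 in untreated OCI-AML3 arrays, a difference of -0.47 ± 0.06 that passed by adjusted p (2.14e-06) and not by fold. The mitochondrial HSP70 gene HSPA9 had -0.57 and the J-domain gene DNAJB6 -0.46 under the same rule. Higher in HL-60 by adjusted p were HSPD1 (0.21), HSP90AB1 (0.21) and CCT2 (0.23). HSPD1, the mitochondrial chaperonin HSP60, read 12.18 to 12.29 in untreated HL-60 arrays (median 12.28) and 11.97 to 12.08 in untreated OCI-AML3 arrays (median 12.05). CCT2, a subunit of the cytosolic chaperonin, read 10.35 to 10.59 in untreated HL-60 arrays (median 10.42) and 10.13 to 10.43 in untreated OCI-AML3 arrays (median 10.16), with overlap. The CCT2 call was lost without untreated OCI-AML3 replicate 3 at 30 min (adjusted p = 0.0535). The HSP90 pair was split, with HSP90AB1 higher and HSP90AA1 lower (-0.30) in HL-60. HSPH1, DNAJA1 and FKBP4 were lower in HL-60 by adjusted p, but not with centred arrays, where BAG1, CRYAB and CHORDC1 passed as higher. Untreated arrays of the lines did not overlap for 16 of the 30 genes, against 32.3% of all probe sets. The median absolute difference between the lines was close, at 0.288 for the list and 0.279 over all probe sets. Lack of overlap also depends on the spread within groups, so the 16 are not read as a result about the list.

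**Figure D4:**
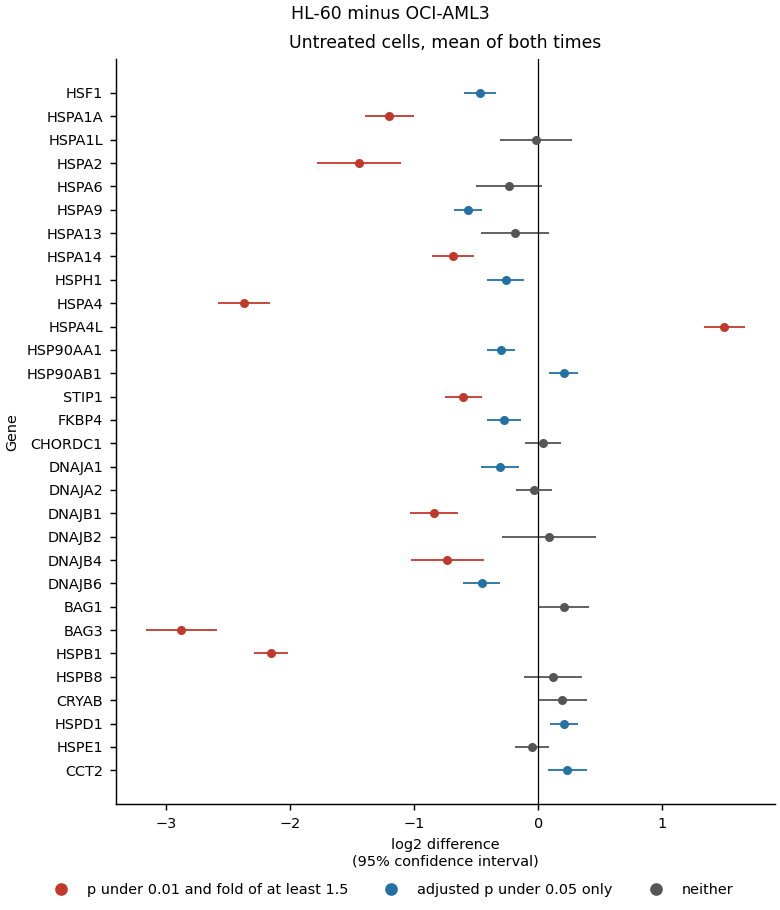
Log2 difference of untreated HL-60 minus untreated OCI-AML3 cells (x axis) for the 30 genes (rows), as the mean of both times, with 95% confidence intervals. BAG3 (-2.88), HSPA4 (-2.37) and HSPB1 (-2.15) lie farthest left, and HSPA4L (1.497) is the red point on the right, with blue marking genes past an adjusted p of 0.05 but under a fold of 1.5.

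Members that stood near background add little to these comparisons. CRYAB, the small heat shock protein alpha-B crystallin, was above the 95th percentile of the negative controls on 0 arrays, HSPB8 on 4 and HSPA6 on 20, while 25 of the 30 genes were above it on all 23. CRYAB read 2.57 to 3.22 over all arrays. HSPA6 read 5.33, 4.65 and 5.26 in treated HL-60 cells at 3 h and 5.23, 4.84 and 4.88 in untreated ones, and no comparison of treated with untreated cells called it.

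Other chaperones outside the list were counted by the same rule, as 97 measured genes in 6 groups. In treated HL-60 cells at 3 h 1 of the 97 rose by p and fold, against 3.87% of all probe sets called in either direction, and 2 were higher by adjusted p, against 5.57%. The gene called by p and fold was CRELD2, a protein of the endoplasmic reticulum induced when folding there fails, with 8.40 ± 0.19 in treated cells and 7.55 ± 0.12 in untreated cells (SD, n = 3 each), a log2 fold change of 0.85 ± 0.11 (1.81-fold, adjusted p = 4.6e-05). The other 3 comparisons of treated with untreated cells called none of the 97 by either rule. Between the times of untreated HL-60 cells 2 of the 97 were called by p and fold (1.5% of all probe sets). DNAJB9 (0.68, adjusted p = 0.0248) and CCT6B were both higher at 3 h. CCT6B lay above the 95th percentile of the negative controls on 0 of the 23 arrays, so it has no measured fold. In untreated OCI-AML3 cells 1 of the 97 was called (2.01%), with 2 arrays at 30 min. It was HSPBAP1, higher at 3 h (0.76, adjusted p = 0.128). By adjusted p 1 of the 97 passed in each line (0.914% and 0.779%). That was DNAJB9 in HL-60 and, as lower at 3 h, a chaperonin or prefoldin subunit in OCI-AML3. Between untreated HL-60 and untreated OCI-AML3 cells 8 of the 97 were higher by p and fold (11.8% of all probe sets) and 10 lower (13.1%), and by adjusted p 36 were higher (24.8%) and 22 lower (21.6%). DNAJC12, a J-domain protein, averaged 7.54 at 3 h and 7.84 at 30 min in untreated HL-60 cells, and was not above the negative controls on any of the 11 OCI-AML3 arrays. SERPINH1, the collagen chaperone HSP47, was above them on 5 of the 12 HL-60 arrays and averaged 8.88 at 3 h and 8.98 at 30 min in untreated OCI-AML3 cells. BAG2, another BAG protein, was higher in HL-60 by 2.19, opposite to BAG3.

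The labels of the cell lines were checked on marker genes. The myeloid genes SPI1, CEBPA and AZU1 were expressed in both lines, and AZU1 did not separate them (medians HL-60 11.44, OCI-AML3 11.45). MPO read 12.99 to 13.14 in HL-60 arrays and 5.29 to 7.53 in OCI-AML3 arrays. PRTN3 was also higher in HL-60 arrays (12.12 to 12.61) than in OCI-AML3 arrays (11.57 to 11.79). CTSG went the opposite way to MPO, with OCI-AML3 arrays (12.27 to 12.61) above HL-60 arrays (9.42 to 10.08). MEIS1 read 3.04 to 4.43 in HL-60 arrays and 7.38 to 8.06 in OCI-AML3 arrays. Of the markers of other cells, CD3D, EPCAM and KRT18 read at most 3.31, 3.75 and 4.27 in any array. The T-cell gene CD3E read 4.38 to 5.87 in HL-60 arrays, where 10 of 12 were above the negative controls, and 3.47 to 4.15 in OCI-AML3 arrays, where 0 of 11 were. COL1A1 read 4.60 to 5.73 in HL-60 arrays and 4.91 to 5.76 in OCI-AML3 arrays, ALAS2 at most 4.72 in any array, and PECAM1, which myeloid cells also express, 6.05 to 6.92 in HL-60 arrays and 8.37 to 8.67 in OCI-AML3 arrays. CD79A, a B-lymphoid gene, read 10.5 to 10.8 in HL-60 arrays and 4.80 to 6.27 in OCI-AML3 arrays. CDKN2A, listed as low for HL-60, read 8.20 to 8.65 there and 7.22 to 7.67 in OCI-AML3. The part of these in the comparison of the lines was not tested.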

How the data were processed

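The authors processed the Clariom S HT arrays by RMA (background convolution, quantile normalization, log2 transformation, robust summarisation) and averaged technical replicate arrays; versions are not given in the sources used here. The deposited log2 values were used as they stand. The table holds 27189 features. Without its 5741 controls, 21448 probe sets entered the tests, and the platform annotation gives a single symbol to 17709 of these. Array medians lay between 5.38 and 5.60, and the number of arrays limits the precision.

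limma 3.58.1 (R 4.3.3) fitted the 8 group means over the 23 arrays (eBayes defaults, Benjamini-Hochberg adjustment over all probe sets of a comparison). The script was first tested on simulated data. The fit has no replicate block. The comparisons of times in treated cells were added after seeing the data. Python 3.11.15, pandas 2.3.3 and matplotlib 3.10.9 read promoters and drew figures.

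Members, chaperone lists and markers were chosen with earlier results of these data known. Array values are given for HSF1, for genes past either rule or among the 2 with the largest fold change in a comparison of treated with untreated cells, and for the 3 largest differences each way between lines and between times of untreated cells. Of other chaperones, at most 4 per list past p and fold were eligible. Other members were given values after those were seen. The alternatives were arrays of 1 cell line only, a replicate block, eBayes with trend and robust, array weights, centring on array medians, bright probe sets only, an adjusted p, and each array left out.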

Additional observations from a re-analysis of the deposited data

Results flagged for a closer look

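HSPA1A was flagged because its effect of CIGB-300 at 3 h differed between the cell lines by a test of the difference itself. The effect in HL-60 minus that in OCI-AML3 was 0.70 ± 0.18 on the log2 scale (limma, unadjusted p = 0.000987 and adjusted p = 0.0678 over all probe sets). The treated arrays were above the untreated arrays in HL-60 and overlapped with them in OCI-AML3. Untreated HL-60 cells had lower HSPA1A values than untreated OCI-AML3 cells at that time. Whether that level took part in the difference was not tested. No group of this series has the 4 arrays that a check for single outlying arrays needs.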

How the results depend on the processing

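No called log2 fold change of a named member between treated and untreated cells changed sign under any alternative run, and only leaving out an array moved one across the p and fold rule. Leaving out 1 array at a time gave 0 to 2 members called in HL-60 at 3 h (1 in all arrays), 0 to 1 in OCI-AML3 at 3 h (0), where HSPA1L passed without treated replicate 2 (-0.65) or 3 (-0.65), 0 to 1 for the difference of lines at 30 min (0), 1 to 2 for that at 3 h (1) and 0 to 1 for the difference of times in OCI-AML3 (0). Between 3 h and 30 min it gave 1 to 3 in treated HL-60 cells (2), 0 to 2 in untreated HL-60 cells (1), 0 to 1 in treated OCI-AML3 cells (0) and 1 to 3 in untreated OCI-AML3 cells (2). Between untreated lines it gave 9 to 11 (10). The 30 min effects in both lines, and the difference of times in HL-60, stayed at 0. Shares of all probe sets are not given for the runs with an array left out, so their counts are not read as results about the list. An adjusted p under 0.05 in place of p and fold gave 3 members in HL-60 at 3 h, 0 for the difference of lines at 3 h, 20 between untreated lines and 2 between times of treated OCI-AML3 cells.

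The HSPA2 call between times of untreated HL-60 cells was lost, leaving 0 members, with arrays of HL-60 only, with eBayes trend and robust and with centred arrays. The run with bright probe sets only kept those above the median, and HSPA2, at percentile 43.4, was not among them. The count of 0 in that run therefore does not test the HSPA2 call. Deviations of same-numbered arrays were at most weakly correlated (highest r 0.081 over 77 pairs), but 13 of 23 arrays correlated best with their own number. Whether that count is more than unrelated numbers would give was not tested, so a weak shared deviation is not excluded. With the replicate number as a block, the count was 0 between times of untreated HL-60 cells, 1 for the difference of times in OCI-AML3 and 3 between times of untreated OCI-AML3 cells, with no other count moved over the limit. No share of all probe sets is given for the fit with that block either. Centring gave 8 members between untreated lines, with no share of all probe sets counted for centred arrays. The choice among probe sets of a gene was not run, since each member has 1. The causes of these changes were not tested. With 3 arrays a group, the median confidence interval of a member reached 0.22 either side on the log2 scale.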
